A study of Drosophila melanogaster with 7 samples.

Results

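The most abundant transcripts of sorted Esg-GFP+ midgut cells, outside gene families left out by symbol prefix, were described in wild type flies and followed into Sox21a-/- flies. A gene was a member if its value was above 0 in all 4 wild type libraries and its median over them was at least 150 FPKM (fragment counts scaled to the length of a gene's exons and to the size of the library, so a level per length). Symbols starting with RpL, RpS, eIF, eEF, ND-, COX, ATPsyn, UQCR, Jon, Lys, snoRNA:, mt: or Act were left out. This gave 118 of the 7608 genes of the table (1.55%), and the prefixes removed 57 others that met both thresholds. The members were thus chosen by their wild type values, and their wild type levels are a description without a test.

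RNA-seq was carried out on progenitor cells sorted from midguts of adult flies at day 10, with 3 libraries of Esg-GFP flies that were Sox21a-/- and 4 of Esg-GFP flies labelled wild type. All flies carried the Esg-GFP fusion, whose fluorescence defined the sort, and w1118 midguts set its gate. The Sox21a-/- flies lacked the group B Sox transcription factor Sox21a, which acts in differentiating enteroblasts. Many guts were pooled for each sort, and the labels do not say that the libraries came from separate cohorts, so the p-values measure the spread between these libraries, which may be partly technical. In bulk RNA, fewer cells of a type and less RNA per cell cannot be told apart.

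Esg-GFP marks the intestinal stem cells (ISCs), which divide through adult life, and their undifferentiated daughters, the enteroblasts (EBs). EBs mature into absorptive enterocytes (ECs), which secrete digestive enzymes, while enteroendocrine cells secrete peptide hormones. Cells that grow and divide need continuous production of ribosomes, protein folding capacity and energy, so transcripts of these processes are usually among the most abundant of a progenitor.

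Depth recovered from the smallest steps between values was about 7507508 to 9633911 reads in the Sox21a-/- libraries and about 7836991 to 9680542 reads in the wild type libraries. Between 23.0% and 28.5% of the genes were listed at exactly 0 in a library, also among genes with high values in its replicates, so a 0 can be a failed estimate and was not read as absence. Sox21a itself was listed at 96.3, 50.6 and 0 FPKM in the Sox21a-/- libraries and at 0, 0, 230 and 233 FPKM in the wild type libraries, so it does not check the labels (log2 difference -1.72 over the values above 0). Wild type libraries 3 and 4 lay closest together, with a standard deviation of 0.083 for their log2 ratio over the members, while every other pair of wild type libraries was above 0.5. All 4 wild type libraries were used as separate replicates although the methods describe 3 biological replicates, so each call lost with libraries 3 and 4 averaged is given beside its gene. Replicate numbers here name libraries, and values are given in the order of these numbers.

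Of the 14 progenitor markers listed, 10 could be matched to the table by symbol, and none of these 10 was a member. Among those at 0 in no wild type library, the Notch target E(spl)m3-HLH came nearest, at 156, 58.0 and 139 FPKM in the Sox21a-/- libraries and 284, 122, 143 and 152 FPKM in the wild type libraries, just under the threshold with a median of 148 FPKM. A related Notch target, E(spl)malpha-BFM, was kept out only by values of 0, at 0, 292 and 586 FPKM in the Sox21a-/- libraries and 0, 615, 0 and 764 FPKM in the wild type libraries. The markers esg and Dl had no match by symbol. IDs without a match in BDGP6 numbered 269, 11 of them members, and whether these include a progenitor marker could not be told from the annotation used here. Markers of other cell types were present. The 7 hemocyte markers summed to 146, 214 and 154 FPKM in the Sox21a-/- libraries and to 2.9, 134, 114 and 115.3 FPKM in the wild type libraries, with 0 of the 7 called by limma and 6 under an unadjusted p of 0.05, and their part in the results was not tested. The scavenger receptor gene crq made up the larger part of each sum above 100 FPKM, and the other 6 markers summed to 8.71, 91 and 13.4 FPKM in the Sox21a-/- libraries and 2.89, 4.41, 3.83 and 2.9 FPKM in the wild type libraries, highest in Sox21a-/- library 2. The 4 visceral muscle markers summed to less than 10 FPKM in each library. The 2 tracheal markers summed to 3.0 FPKM at most, and the 8 of fat body and ovary to 164 to 389 FPKM in the Sox21a-/- libraries and 120 to 343 FPKM in the wild type libraries, with 0 called and 1 under an unadjusted p of 0.05 among the 10 tested of these 3 lists. Of the progenitor list 0 of 8 tested were higher and 2 lower (klu and Sox21a), and of the enteroendocrine list 1 of 7 was higher (CCHa2) and 1 lower (Mip).

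The members held 11.2, 13.4 and 10.2% of the summed FPKM of the Sox21a-/- libraries and 13.5, 15.5, 12.1 and 12.6% of that of the wild type libraries, so the groups overlapped. The 57 genes that met both thresholds but were left out by prefix held more. Their share was 20.5 to 20.7% in the Sox21a-/- libraries and 23.7 to 27.8% in the wild type libraries. They were also chosen by wild type values and are only a part of the prefixed families. Wild type medians of the members ran from 151 to 4349 FPKM, with a median of 243 FPKM. Only 12 members reached 1000 FPKM, 20 reached 500 FPKM and 40 reached 300 FPKM. Just inside the threshold were CG17896 at 151, the V-ATPase subunit VhaM9.7-b at 153 and the ESCRT-III subunit Vps24 at 153 FPKM. Just outside it were the Arp2/3 subunit Arpc1 at 148, E(spl)m3-HLH at 148 and the nucleosome remodelling subunit Nurf-38 at 146 FPKM.

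The highest member was NPF, neuropeptide F, a hormone of enteroendocrine cells rather than of progenitors. It was at 5435, 8621 and 0 FPKM in the Sox21a-/- libraries and at 9268, 3989, 4270 and 4428 FPKM in the wild type libraries. The groups overlapped where NPF was above 0, and its log2 difference of 0.41 ± 0.42 (SE) was not called (adjusted p = 0.555, limma). The 9 other enteroendocrine markers with values, which summed to 30170.1, 77.0 and 22816 FPKM in the Sox21a-/- libraries and 19424, 531, 1728 and 17050.4 FPKM in the wild type libraries, owed these sums mainly to Orcokinin, listed at 0 where the sums were low. The part of enteroendocrine cells in the NPF level was not tested.

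**Figure D1:**
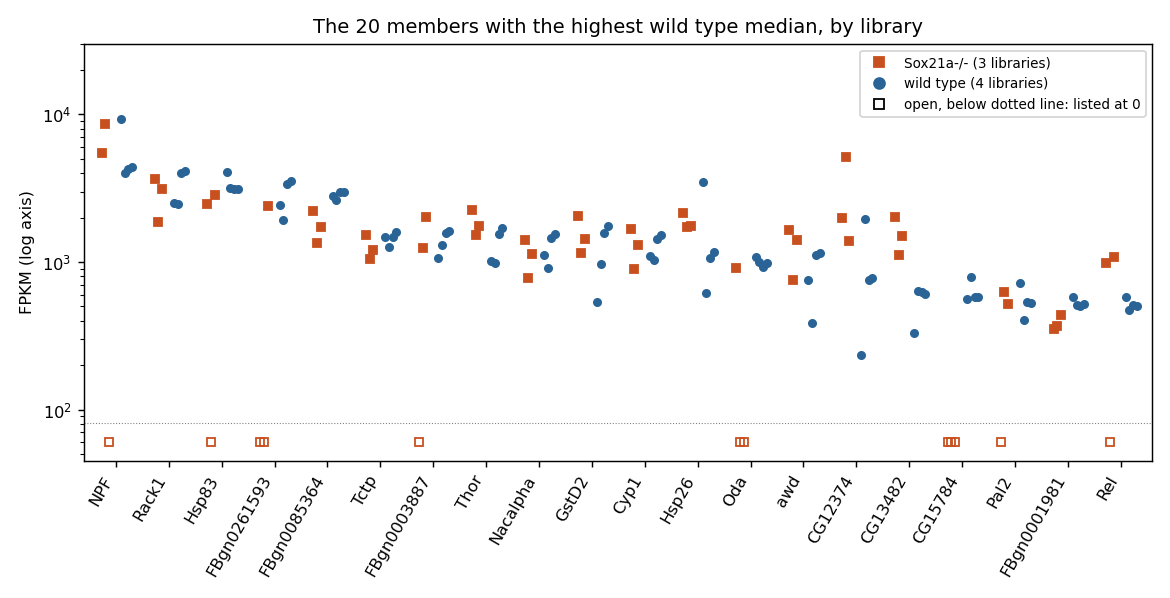
FPKM (log axis) of the 20 members with the highest wild type medians in each library, with Sox21a-/- as squares left of wild type as circles and values of 0 as open symbols under the dotted line. NPF stands highest at 3989 to 9268 FPKM in wild type, and 8 of the 20 genes have at least 1 Sox21a-/- library listed at 0.

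Next came genes of translation and its control. Rack1, a scaffold protein on the small ribosomal subunit, was at 3651, 1871 and 3103 FPKM in the Sox21a-/- libraries and 2495, 2454, 4021 and 4153 FPKM in the wild type libraries. Tctp, a growth regulator, was at 1533, 1055 and 1211 FPKM in the Sox21a-/- libraries and 1478, 1262, 1475 and 1591 FPKM in the wild type libraries. Thor, the fly 4E-BP, which binds eIF4E and holds back cap-dependent translation, was at 2234, 1516 and 1754 FPKM in the Sox21a-/- libraries and 1023, 987, 1553 and 1701 FPKM in the wild type libraries. All of these ranges overlapped. Nacalpha, which binds nascent chains at the ribosome, also overlapped, while pix, the fly ABCE1 of ribosome recycling, did not overlap where it was above 0 and had 0, 148 and 187 FPKM in the Sox21a-/- libraries against 267, 303, 276 and 274 FPKM in the wild type libraries. None of these 5 genes was called, and 1 was under an unadjusted p of 0.05. This was pix, with a log2 difference of -0.74 ± 0.20 (adjusted p = 0.0514, limma).

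Protein folding was the largest role among the members, with 13 genes. Hsp83, the fly Hsp90, was at 2485, 0 and 2851 FPKM in the Sox21a-/- libraries and 4066, 3169.8, 3133 and 3139 FPKM in the wild type libraries. Hsp26, a small heat shock protein, was at 2136, 1726 and 1750 FPKM in the Sox21a-/- libraries and at 3491, 619, 1058 and 1167 FPKM in the wild type libraries, so wild type library 1 was above and the other 3 below all Sox21a-/- libraries. Hsp27, of the same family, was at 0, 0 and 385 FPKM in the Sox21a-/- libraries and at 1101, 228, 252 and 274 FPKM in the wild type libraries, again highest in wild type library 1, and was not tested. The cyclophilin Cyp1, a prolyl isomerase, was at 1680, 892 and 1301 FPKM in the Sox21a-/- libraries and 1094, 1024, 1420 and 1526 FPKM in the wild type libraries. A set of 4 subunits of the CCT chaperonin, which folds actin and tubulin, the mitochondrial chaperonin Hsp60A, the Hsp90 co-chaperone Stip1, the ER disulfide isomerase ERp60 and the isomerases Fkbp12 and CG2852 made up the rest, with wild type medians from 155 to 348 FPKM. None of the 11 tested genes of this group was called by limma, and 2 were under an unadjusted p of 0.05. These were Hsp60A and Stip1, which did not overlap between the groups, with Stip1 at 123, 103 and 119 FPKM in the Sox21a-/- libraries and 154, 211, 150 and 156 FPKM in the wild type libraries (adjusted p = 0.0958, limma).

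Genes of energy metabolism numbered 10, with no call by limma and 2 under an unadjusted p of 0.05. They comprised both glyceraldehyde phosphate dehydrogenases (Gapdh1 and Gapdh2), lactate dehydrogenase (Ldh), the mitochondrial phosphate carrier Mpcp2, the malate dehydrogenase Mdh2, the fatty acid oxidation enzyme Mcad, the ATP synthase alpha subunit blw, the cytochrome c oxidase subunits cype and levy, and the transketolase-related CG8036. All 10 had a Sox21a-/- median of at least 150 FPKM. The largest differences were those of cype, at 876, 484 and 634 FPKM in the Sox21a-/- libraries and 335, 159.5, 431 and 495 FPKM in the wild type libraries, and levy, at 427, 242 and 286 FPKM in the Sox21a-/- libraries and 149, 78.6, 213 and 239 FPKM in the wild type libraries. The groups overlapped by 1 library for cype and did not overlap for levy, whose log2 difference was 0.98 ± 0.39 (adjusted p = 0.136, limma). The median log2 difference of the 10 was 0.26 and turned to -0.015 under quantile normalization.

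Stress and detoxification genes included GstD2, a glutathione S-transferase, at 2059, 1150.4 and 1442 FPKM in the Sox21a-/- libraries and 539, 964, 1574 and 1750 FPKM in the wild type libraries. GstD3, the cytochrome P450 Cyp9c1, the epoxide hydrolase Jheh2 and the thioredoxin Trx2 had wild type medians of 192 to 215 FPKM, and none of the 5 was called or under an unadjusted p of 0.05 by limma. The list also held 3 subunits of the V-ATPase proton pump (Vha16-1, Vha68-2 and VhaM9.7-b) and 4 subunits of ESCRT-III and its partners, which cut membrane necks in endosome sorting and cell division (Chmp1, Vps2, Vps24 and Vps60). None of the 6 tested was called and 1, VhaM9.7-b, was under an unadjusted p of 0.05. It was at 246, 248 and 194 FPKM in the Sox21a-/- libraries and 135, 152, 154 and 161 FPKM in the wild type libraries, which did not overlap, with a log2 difference of 0.60 ± 0.17 (adjusted p = 0.0537, limma). Genes of the nucleus (LamC, baf, Ran, His3.3A, Nlp and Karybeta3) and of the cytoskeleton and adhesion (cpa, flr, Septin2, Fit1, stck, Dlc90F and RhoGDI) gave no call in 12 tested, 2 of which (LamC and Karybeta3) were under an unadjusted p of 0.05.

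Other genes among the 20 highest were Oda, the ornithine decarboxylase antizyme, awd, a nucleoside diphosphate kinase, and Pal2, a lyase of peptide amidation. Oda was at 906, 0 and 0 FPKM in the Sox21a-/- libraries and 1084, 996, 926 and 982 FPKM in the wild type libraries. awd was at 1647, 754 and 1410 FPKM in the Sox21a-/- libraries and 754, 383, 1118 and 1154 FPKM in the wild type libraries, and Pal2 was at 0, 624 and 516 FPKM in the Sox21a-/- libraries and 724, 406, 539 and 529 FPKM in the wild type libraries. Both overlapped where they were above 0. Of the 11 members whose FlyBase IDs had no match in the BDGP6 annotation, to which the prefixes could not be applied, 4 ranked among the 20 highest. FBgn0261593 was at 0, 0 and 2377 FPKM in the Sox21a-/- libraries and 2429, 1926, 3359 and 3516 FPKM in the wild type libraries. FBgn0085364 was at 2217, 1351 and 1738 FPKM in the Sox21a-/- libraries and 2784, 2630, 2988 and 2980 FPKM in the wild type libraries, without overlap but not called (log2 difference -0.71 ± 0.23, adjusted p = 0.0761, limma). FBgn0003887 was at 0, 1251 and 2011 FPKM in the Sox21a-/- libraries and 1064, 1312, 1575 and 1624 FPKM in the wild type libraries. It overlapped where it was above 0 and was not called (log2 difference 0.21 ± 0.30, adjusted p = 0.693, limma). FBgn0001981 was at 351, 365 and 435 FPKM in the Sox21a-/- libraries and 576, 514, 504 and 523 FPKM in the wild type libraries. It did not overlap but was not called (log2 difference -0.47 ± 0.18, adjusted p = 0.12, limma).

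Whether this profile held in the Sox21a-/- libraries was asked first by level. A Sox21a-/- median of at least 150 FPKM was kept by 88 of the 118 members (74.6%). Values of 0 were part of the shortfall. At least 1 Sox21a-/- library was at 0 for 32 members (27.1%), close to the 24.4% of the 3435 other genes with no wild type 0, and the zeros were spread over the libraries (15, 13 and 17). Of the 86 members without a 0, 69 kept 150 FPKM (80.2%) and 17 were below it, CG34330 lowest at a median of 75.6 FPKM. The number at 0 in all Sox21a-/- libraries was 3, namely CG15784, CG34198 and FBgn0026753, of which the last 2 were named after their values were seen. CG15784, of unknown function, was the highest of them, at 0 in each Sox21a-/- library against 559, 794, 582 and 575 FPKM in the wild type libraries. Applied to the Sox21a-/- columns, the same rule chose 136 genes, of which 69 were members, 50.7% of the Sox21a-/- list and 58.5% of the wild type list. Of the 67 genes chosen in Sox21a-/- alone, 39 had a wild type library at 0 and 28 had a wild type median under 150 FPKM.

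**Figure D2:**
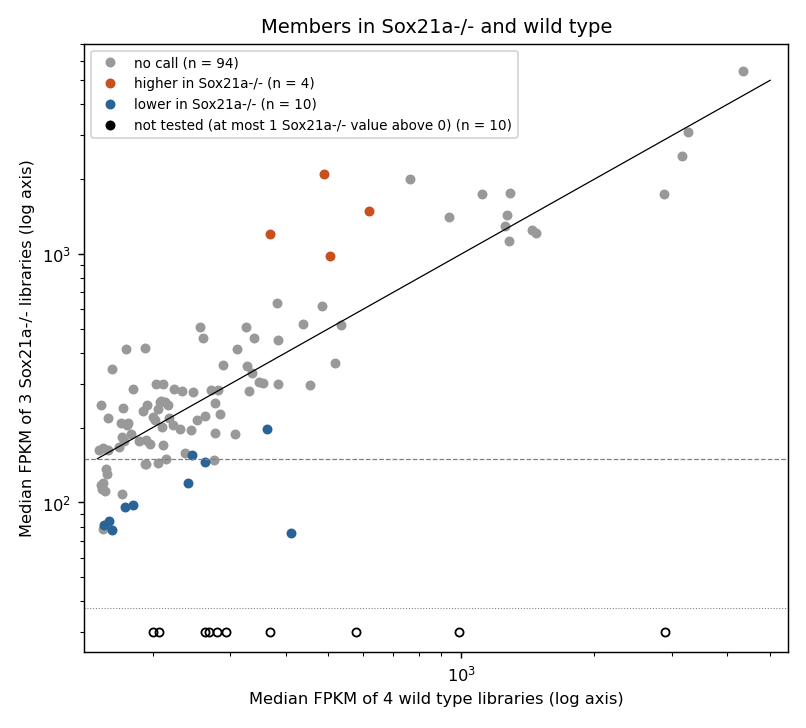
Median FPKM of the 3 Sox21a-/- libraries against that of the 4 wild type libraries for each of the 118 members (both axes log), with equality as a solid line and 150 FPKM dashed, and medians of 0 as open circles under the dotted line. Colours give the limma call, and 88 members lie on or above the dashed line.

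Differences were then tested with limma on log2(FPKM + 1) with values of 0 as missing, fitted over all 5022 genes that could be tested. Of these, 6.87% were higher and 5.28% lower in Sox21a-/- at an adjusted p of at most 0.05. Among the 108 members tested, 4 were higher (3.70%) and 10 lower (9.26%), 94 were not called, and the other 10 had fewer than 2 Sox21a-/- values above 0. The high wild type values that chose the members also enter these differences, which can lean them towards lower calls. The shares therefore say nothing about the members as a set, and the counts that kept 150 FPKM have the same limit. Under quantile normalization the members' calls were 0 higher and 22 lower, and with values of 0 kept as values 0 higher and 5 lower. Scaling without the 50 highest genes turned the calls over all genes to 202 higher and 239 lower, against 345 higher and 265 lower, and placed the median log2 difference of all genes at -0.20 in place of -0.04. The median over the members was 0.12 and turned to -0.24 under quantile normalization and to -0.05 without the 50 highest genes. A difference of less than 2-fold was found for 95 of the 108 (88.0%), beside 87.9% of all genes tested. Among genes at 0 in no library, the Sox21a-/- libraries all lay above the wild type libraries for 11 of 86 members, beside 16.0% of such genes, and all below for 16, beside 17.0%.

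Of the 10 lower calls, 6 were genes of ribosome assembly, a group put together after the members were known. These were all 6 members to which this role was given, and the 11 members without a matched symbol were given no role. They were lower in Sox21a-/-, with a median log2 difference of -0.98. Fib (fibrillarin, the methyltransferase of box C/D snoRNPs, which modify ribosomal RNA) was at 97.8, 61.0 and 100.4 FPKM in the Sox21a-/- libraries and 117, 156, 206 and 212 FPKM in the wild type libraries. Its partners in the same particle followed. nop5 was at 96.5, 64.3 and 95.7 FPKM in the Sox21a-/- libraries and 151, 181, 173 and 174 FPKM in the wild type libraries. Nop56 was at 83.1, 56.5 and 81.1 FPKM in the Sox21a-/- libraries and 139, 177, 153 and 157 FPKM in the wild type libraries. In these 3 box C/D genes the Sox21a-/- libraries were low and the groups did not overlap. Nop10 belongs to the other snoRNP class, the pseudouridylating box H/ACA particles, and was at 135, 96.7 and 120.3 FPKM in the Sox21a-/- libraries and 313, 153, 255 and 227 FPKM in the wild type libraries. CG4364, the fly Pescadillo, acts in assembly of the large subunit and was at 198, 157 and 197 FPKM in the Sox21a-/- libraries and 353, 372, 353 and 371 FPKM in the wild type libraries. LTV1, which acts in assembly of the small subunit, was at 157, 109 and 145 FPKM in the Sox21a-/- libraries and 262, 267, 263 and 261 FPKM in the wild type libraries, the smallest wild type spread of all members (0.952% of the mean, SD, n = 4). For each of the 6 genes all Sox21a-/- libraries lay below all wild type libraries, beside 17.0% of all genes at 0 in no library. Sox21a-/- library 2 was the lowest for each of them.

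The log2 differences of these genes were -0.99 ± 0.27 for Fib (adjusted p = 0.048), -1.004 ± 0.19 for nop5 (0.0112), -1.09 ± 0.19 for Nop56 (0.00735), -0.98 ± 0.26 for Nop10 (0.0424), -0.98 ± 0.17 for CG4364 (0.00735) and -0.95 ± 0.18 for LTV1 (0.0105), all by limma. Nop56, nop5, CG4364 and LTV1 stayed under 0.05 with any 1 library left out. Fib was lost without any library but wild type library 1 (adjusted p 0.0663 to 0.118) and Nop10 without any but wild type library 2 (0.0613 to 0.106). With wild type libraries 3 and 4 averaged, Fib (0.108) and Nop10 (0.0933) were lost, and median-ratio scaling lost Fib (0.0554). With replicate number as a block in the fit, Fib, nop5, CG4364 and LTV1 were lost. With values of 0 kept as values in the fit, CG4364 stayed under 0.05 (adjusted p = 0.0409) and the other 5 genes had an adjusted p of 0.0501 to 0.243. Sox21a-/- library 2 was also the lowest of its group for 67 of the 86 members without a 0, and without it the median of the group was -0.83. The exons of Nop10 overlap those of CG12935 on the other strand, from which its reads could not be separated if the counting ignored strand.

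**Figure D3:**
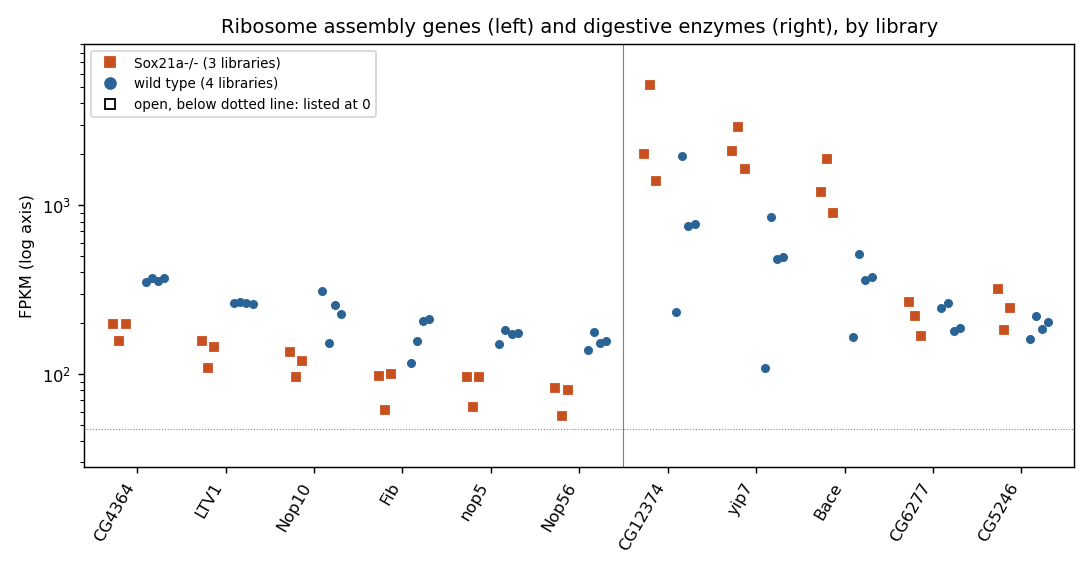
FPKM (log axis) of the 6 ribosome assembly genes and the 5 digestive enzymes in each library, with Sox21a-/- as squares left of wild type as circles. For the ribosome assembly genes the squares lie below the circles in all 6, while among the enzymes they lie above them in yip7 and Bace and overlap them in CG12374, CG6277 and CG5246.

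The other 4 members called lower had other or unknown roles. CG34330, of unknown function (X:19068275-19068973 in BDGP6), was at 75.6, 175 and 56.2 FPKM in the Sox21a-/- libraries and 422, 400.0, 376 and 432 FPKM in the wild type libraries. Its log2 difference of -2.15 ± 0.35 was the largest decrease among the members (adjusted p = 0.00517, limma, and 0.0565 with values of 0 kept). Dtg, a target gene of the BMP ligand Dpp (3R:12648058-12652910 in BDGP6), was at 77.2, 58.2 and 84.1 FPKM in the Sox21a-/- libraries and 168, 130, 162 and 163 FPKM in the wild type libraries, a log2 difference of -1.09 ± 0.19 (adjusted p = 0.00701, limma) that stayed under 0.05 in all 20 alternative settings. CG15019 and CG10576, named after their values were seen, had log2 differences of -0.92 and -0.71 (adjusted p = 0.026 and 0.0371, limma). Their adjusted p reached 0.142 and 0.16 over the alternatives, CG15019 being lost without wild type library 3 or 4 or Sox21a-/- library 2 or 3, and CG10576 without any library but wild type library 1. Both were also lost with wild type libraries 3 and 4 averaged and with values of 0 kept, and CG10576 with replicate number as a block.

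Digestive enzymes gave both of the largest increases. yip7, a serine protease of the gut (3L:6035216-6036175 in BDGP6), was at 2102, 2886 and 1645 FPKM in the Sox21a-/- libraries and 109, 847, 483 and 494 FPKM in the wild type libraries. The aspartic protease gene Bace (2L:8494893-8496307 in BDGP6) was at 1200.2, 1884 and 901 FPKM in the Sox21a-/- libraries and 165, 517, 363 and 377 FPKM in the wild type libraries. In both genes all Sox21a-/- libraries lay above all wild type libraries, wild type library 1 was lowest and Sox21a-/- library 2 highest. The log2 differences were 2.48 ± 0.64 for yip7 (adjusted p = 0.0426) and 1.94 ± 0.41 for Bace (adjusted p = 0.017), by limma. The call of yip7 held in 8 of 20 alternative settings and was lost with replicate number as a block. It was lost without wild type library 3 or 4 or any 1 Sox21a-/- library (adjusted p 0.0697 to 0.11), with wild type libraries 3 and 4 averaged (0.0849), under median-ratio scaling (0.0557), quantile normalization (0.0917) or scaling without the 50 highest genes (0.0989), with depth level as a covariate (0.0658) and with values of 0 kept (0.221). Bace held in 16 of 20 and was lost under quantile normalization (0.112), with values of 0 kept (0.129) and without Sox21a-/- library 1 (0.0614) or 2 (0.0525).

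The carboxypeptidase CG12374 showed the same order of libraries at 1996, 5162 and 1388 FPKM in the Sox21a-/- libraries and 235, 1965, 753 and 778 FPKM in the wild type libraries. Its groups overlapped and its log2 difference of 1.75 ± 0.72 was not called (adjusted p = 0.156, limma). The lipase CG6277 and the serine protease CG5246 overlapped throughout, with log2 differences of -0.004 and 0.34. ECs are the source of such enzymes. Without yip7, the 21 EC markers summed to 929.5, 5878 and 3898 FPKM in the Sox21a-/- libraries and 594, 2788, 1898 and 541 FPKM in the wild type libraries, and of the 15 tested with yip7 among them 7 were higher and 0 lower in Sox21a-/-. Values of 0 lowered some of these sums. The trypsin gene alphaTry was at 0, 4417 and 1332 FPKM in the Sox21a-/- libraries and 201.5, 748, 545 and 0 FPKM in the wild type libraries. Its relative betaTry was at 0 in Sox21a-/- libraries 1 and 2 and in wild type library 4. The part of ECs in the levels of yip7, Bace and CG12374 was not tested.

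Both remaining increases were in CG13482 and Rel. CG13482, of unknown function (3L:14329346-14329885 in BDGP6), was at 2032, 1116 and 1494 FPKM in the Sox21a-/- libraries and 331, 639, 629.5 and 609 FPKM in the wild type libraries. Its log2 difference was 1.49 ± 0.31 (adjusted p = 0.0168, limma). The call was lost without Sox21a-/- library 1 (0.0671) or 3 (0.0539), under quantile normalization (0.099) and with values of 0 kept (0.109). It was also lost with replicate number as a block (0.0548). Rel, the NF-kappaB factor Relish of the antibacterial Imd pathway (3R:9044183-9047977 in BDGP6), was at 977, 0 and 1080 FPKM in the Sox21a-/- libraries and 576, 473, 508 and 503 FPKM in the wild type libraries. Above 0 the groups did not overlap, and the log2 difference was 0.999 ± 0.21 (adjusted p = 0.0227, limma). Rel was lost without wild type library 3 (0.0754) or 4 (0.07), with both averaged (0.0703), under quantile normalization (0.818) and without the 50 highest genes (0.0778), and with its 0 kept as a value the difference turned to -2.34. Replicate number as a block also lost Rel. The other transcription factors among the members were Xbp1, the effector of the unfolded protein response, at 657, 409 and 617 FPKM in the Sox21a-/- libraries and 352, 447, 521 and 527 FPKM in the wild type libraries, and Jra, the fly Jun, with medians of 255 and 209 FPKM in Sox21a-/- and wild type. Neither was called.

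**Figure D4:**
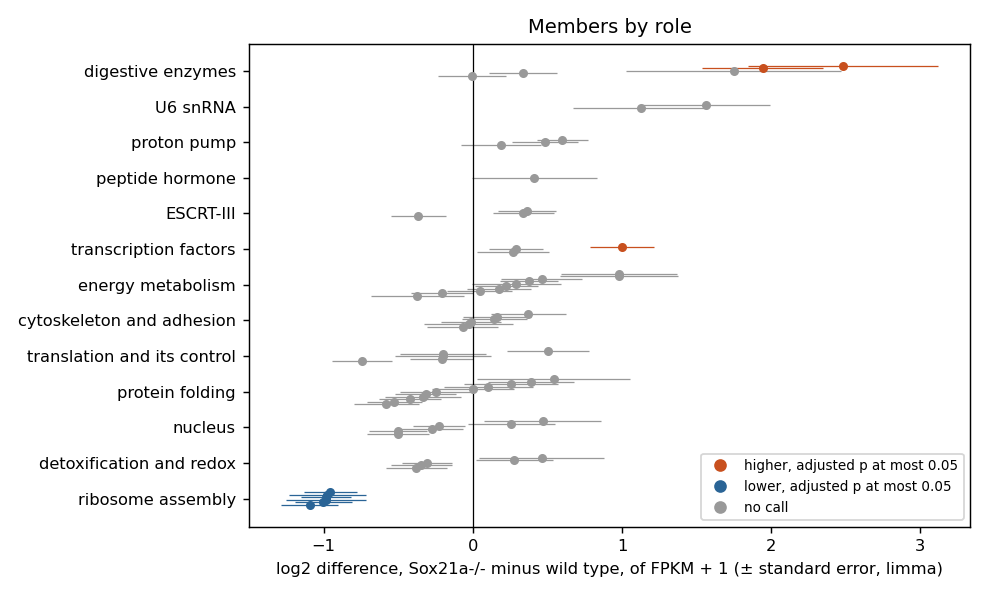
Log2 difference (Sox21a-/- minus wild type, log2 of FPKM + 1, ± SE from limma) of each tested member with an assigned role, 1 row per role ordered by its median. The 6 ribosome assembly genes sit between -1.09 and -0.95, and the highest values belong to the digestive enzymes yip7 (2.48) and Bace (1.94).

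The members varied among themselves in wild type. The coefficient of variation over the 4 libraries had a median of 17.3%, 18 members varied by less than 1.2-fold, and 15 varied by more than 3-fold. Of these 15, 7 were lowest in wild type library 1 and highest in library 2 (CG12374, yip7, Bace, snRNA:U6:96Ab, CG13323, CG15043 and CG5107), and Hsp26 and Hsp27 were highest in library 1. These genes were picked here for their spread. The sum of the EC markers given above was also higher in wild type library 2 than in library 1. Both U6 snRNA copies, which are nearly identical neighbours on 3R so that reads may be split between them, were at 591 FPKM in Sox21a-/- library 1 and at 0 in library 2. They were at 461 FPKM (snRNA:U6:96Ab) and 417 FPKM (snRNA:U6:96Aa) in library 3, against 87.2 to 402 FPKM in the wild type libraries, and were not called (adjusted p = 0.151 and 0.0543, limma).

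In features that the rule did not use, the 105 members annotated as protein-coding had a median exon length of 1516 bases, and the 6602 other protein-coding genes of the table had 1759. A single annotated transcript was found for 35.2% of these members and 49.5% of the others. Named members lay on 2L (16), 2R (29), 3L (21), 3R (27) and X (14), with none on chromosome 4. In BDGP6, 33 members shared exonic bases with another gene, 31 of them with a gene on the other strand and 2, Oda and RhoGDI, on the same strand, and their values are uncertain to that extent.

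Of the process lists written from general knowledge, chaperones supplied 5 members (Hsp83, Hsp26, Hsp27, Hsp60A and ERp60), glycolysis, the V-ATPase and translation 3 each, and mitochondrial carriers and chromatin 1 each (Mpcp2 and His3.3A). No member of these lists was called. Over all their genes limma called 0 of 9 chaperones, 0 of 8 glycolysis genes, 0 of 7 V-ATPase subunits, 1 of 7 translation genes (lower), 0 of 2 carriers and 0 of 6 chromatin genes, with 8 of these 39 under an unadjusted p of 0.05. The lists of ferritin and metal, cytoskeleton, redox, ubiquitin and SUMO, and secretory pathway held no member among their genes matched by symbol. Only 9 of 17 cytoskeleton genes and 7 of 9 of ubiquitin and SUMO were matched. Members without a matched symbol could not be placed on any list. These lists had 0 calls among 21 genes tested, with 1 under an unadjusted p of 0.05. A wild type value of 0 kept 157 further genes out of the members whose median above 0 was at least 150 FPKM, among them Orcokinin, another enteroendocrine hormone, at 19300 and 16410 FPKM in wild type libraries 1 and 4 and 0 in the others.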

How the data were processed

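RNA-seq of FACS-sorted Esg-GFP+ cells was analysed from 3 Sox21a-/- and 4 wild type libraries. The authors aligned the single-end reads with TopHat2 2.0.10 (genome Release 5) and deposited FPKM computed by Cufflinks 2.2.1 (written RPKM in the methods, the same for single-end reads). No counts were used here, and strand use is not given in the sources used here. Names, biotypes and positions came from BDGP6 by FlyBase ID (7339 of 7608 matched). Depth was estimated from 8 to 33 single-transcript genes per library, whose low values are multiples of 1 read.

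Differences were fitted with limma 3.58.1 in R 4.3.3 (trend and robust settings, two-sided) on log2(FPKM + 1), with 0 as missing, for genes with at least 2 values per group and a mean of at least 1 FPKM, with Benjamini-Hochberg adjustment over 5022 genes. A fold on this scale understates changes of weak genes. The fit was also run on simulated data, where it called 32 of 79 tested genes given a log2 change of 1. It called 71 of 89 given a change of 2, and 3 of its 106 calls were unchanged genes. A gene without a call may thus still differ. The simulated noise was independent between genes and libraries, with spreads taken from the wild type libraries. Deviations shared by many genes of a library were not simulated, so 3 of 106 is not the rate of false calls in the real data. The members and lists were chosen with earlier results of these data known, and roles were assigned after the members were seen. Named were the 20 highest members, the 8 largest rises and falls called, the 8 highest members with a Sox21a-/- value of 0, the 3 genes on each side of the threshold, list members and Sox21a, with other names marked or given for a role, a count or a range. Alternatives were zeros kept as values or barred, a pseudocount of 0.1 or 0.01, minimum means of 0 or 5 FPKM, 3 scalings, plain limma, each library left out, a replicate block, other thresholds and denominators and, added after seeing the data, wild type libraries 3 and 4 averaged and depth level as a covariate. Promoter and protein features were not analysed here. Python 3.11.15, numpy 2.4.6, pandas 2.3.3 and matplotlib 3.10.9 were used.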

Additional observations from a re-analysis of the deposited data

Results flagged for a closer look

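In 6 of 50 sets of 4 wild type values examined (47 named genes and 3 summed levels), 1 library lay far from the other 3. Chance would give 2.5 if libraries and genes were independent. Wild type libraries 3 and 4 lay close together and genes of 1 library need not be independent, so 6 is not read against 2.5. In wild type library 1, NPF was at 9268 FPKM (the others at 3989 to 4428), Hsp83 at 4066 (3133 to 3169.8), Hsp27 at 1101 (228 to 274) and CG13482 at 331 (609 to 639). In wild type library 2, CG15784 was at 794 FPKM (the others at 559 to 582) and Dtg at 130.4 (162 to 168). Both called genes among these, CG13482 and Dtg, kept their call with that library left out.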

How the results depend on the processing

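Of 823 alternative values for 43 named genes tested, 728 kept their direction and side of the threshold, 52 lost and 13 gained the call and 30 turned in direction. The cause was not tested. With zeros kept as values, log2 differences turned to -3.83 (NPF), -3.34 (FBgn0003887), -2.97 (Pal2), -2.34 (Rel), -2.70 (ERp60), -2.39 (Vha16-1), -2.30 (Vha68-2) and 0.17 (Sox21a). Quantile normalization gave -0.27 (FBgn0003887), -0.21 (GstD2), -0.56 (Cyp1), -0.039 (awd), -0.60 (Pal2), -0.007 (CG17896), -0.22 (ERp60) and -0.32 (Mpcp2). Scaling without the 50 highest genes gave -0.18 (Cyp1), -0.061 (Pal2), -0.013 (CG17896), -0.077 (ERp60) and -0.009 (Mpcp2), and depth as a covariate gave -0.095 (Cyp1). With a library left out, the values ranged over -0.40 to 0.082 (Rack1), -0.40 to 0.033 (Nacalpha), -0.21 to 0.24 (Cyp1), -0.058 to 0.22 (Pal2) and -0.033 to 0.22 (ERp60). Members called were 0 higher and 5 lower with zeros kept, 0 and 22 under quantile normalization, 2 and 6 with wild type libraries 3 and 4 averaged, and 0 to 6 higher and 6 to 9 lower with a library left out. Over all genes they were 91 and 69 with zeros kept, 227 higher among genes at 0 in no library, 202 higher without the 50 highest genes, 169 lower with those libraries averaged, and 165 to 407 higher and 140 to 250 lower with a library left out. Libraries of the same replicate number were alike only in part. Their deviation correlations were 0.362 for number 2 and 0.229 for number 3. Each was the highest of that wild type library with any Sox21a-/- library. For number 1 it was -0.036, and wild type library 1 correlated best with Sox21a-/- library 2 (0.048). Whether the numbers stand for shared batches was not tested. With a replicate block, 2 members were higher and 5 lower, and 261 and 147 of all genes. The members numbered 185 at 100 FPKM and 275 with wild type zeros allowed, and 120 to 144 with a wild type library left out, of which 151 and 163, and 88 to 106, kept the threshold in Sox21a-/-, and 57 did so at 200 FPKM. Without 1 Sox21a-/- library, 78 to 91 did. Members' mean shares (11.6% in Sox21a-/-, 13.4% in wild type) were 22.2% and 26.4% of the sum without the prefixed families. Of the sum of genes at 0 in no library, the members among them held 22.0% and 19.98%, so the order of the groups turned. The 105 protein-coding members had at least about 333 reads per wild type library, while the short U6 copies had as few as about 90.3. Reads were not computed for the 11 members without an exon length.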
